A study of Rattus norvegicus with 4 samples.

Results

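The genes described here are the caspases, the Bcl2 family and their direct partners, the machinery of programmed cell death, in rat gracilis muscle after ischemia and reperfusion. They were chosen by the gene name of the array probe: names beginning with Casp and a digit, with Bcl2, or with Birc followed by 1, 2, 3, 4 or 6, together with Bax, Bak1, Bad, Bid, Bik, Bok, Bmf, Hrk, Mcl1, Bbc3, Pmaip1, Apaf1, Cycs, Diablo, Cflar and Xiap. The rule used no measured value. It found 37 of 35658 genes, on 51 of 41012 probes. No probe was named Hrk, Pmaip1 or Xiap, but Birc4 is the older name of Xiap and Birc1b that of Naip6. Of the 37 genes, 18 promote cell death, 12 protect from it, 3 are inflammatory or endoplasmic reticulum caspases (Casp1, Casp4, Casp12), and 4 have another or no settled role. In all, 34 members were measured on every array.

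In the study, gracilis muscle, a thin adductor of the thigh, was taken from male Sprague-Dawley rats after 4 h of ischemia and 1, 3, 7 or 14 days of reperfusion, in a search for targets of a microRNA. On each of 4 arrays the RNA of 1 injured muscle (Cy5) was read against that of 1 sham-operated control muscle (Cy3), with no dye swap. The injured groups therefore differ from the controls in both ischemia and reperfusion, and the sources used here give no genetic change, no other agent and no age. They do not say how long after the operation the sham muscle was taken, or whether all arrays carried the same sham RNA. If they did, all 4 comparisons share their control.

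Apoptosis can start at the mitochondrion or at death receptors on the cell surface. At the mitochondrion, BH3-only proteins release Bax and Bak1 from protective Bcl2-like proteins, the outer membrane is opened, and cytochrome c leaves to form the apoptosome with Apaf1, which activates caspase 9 and then the executioner caspases. Death receptors act through caspase 8, which Cflar holds back, and the inhibitor of apoptosis proteins (IAPs) restrain the caspases further down. Inflammatory caspases instead process interleukin precursors or open the plasma membrane, and in skeletal muscle these routes act in fibres as well as in the blood and connective tissue cells that enter injured tissue.

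Between 22947 and 24466 genes were measured per array, that is, well above background in at least 1 channel. Each value is the log2 of injured over sham, so that 1 is 2-fold, and a gene is represented by its brightest probe. Spot noise on an array (SD over 40 repeatedly printed probes) was 0.06 to 0.12. The 4 sham channels, which correlated at r from 0.972 to 0.993 across genes that are not independent replicates, serve as the yardstick for spread. Ratios of bright probes depended on the normalization. After loess the median of all genes was 0.02 to 0.05, but with each array only centred on its median log ratio it was 0.37, 0.29, 0.27 and 0.27 on days 1, 3, 7 and 14, and in the deposited ratios 0.14, 0.18, 0.23 and 0.12. Values under those 2 scalings are to be read against these medians. A member's sign was the same under loess, under median centring, in the deposited ratios and with the mean of the 4 shams as the reference for 26 of 36 members on day 1, 27 of 36 on day 3, 19 of 35 on day 7 and 19 of 34 on day 14. The sham channel was not well above background for 5, 7, 11 and 4 members on these days. Where a fold is given as "at least", the sham channel was set to the lowest signal well above background on its array if that was higher than its own. Set so, Birc1b and Bcl2l12 fell to -0.04 and -0.12 on day 7, so their values of 0.41 and 0.43 on that day give no fold.

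The muscle fibre markers fixed for the tissue were bright in sham muscle, with creatine kinase Ckm at log2 levels of 15.27 to 16.33. In the injured muscle all 6 fibre markers were below sham on days 1 and 3 (medians -3.19 and -4.00). The list had medians of -0.64 on day 7 and 0.26 on day 14, with 1 and 5 of 6 above sham. Myh7 was at -3.99 and -2.66 on these days. Against the mean of the shams only Tnnt3 and Myh4 were above 0 on day 14 (1.03 and 0.44). Ckm, Acta1, Mb and Myh7 were then at -0.53, -0.44, -0.24 and -2.81. Under median centring only Mb and Myh7 were below 0 on day 7 (-0.01 and -3.02). Spots of Ckm, Mb and Myh7 were saturated on day 14. Neutrophil markers were above sham on day 1 (median 2.56, 4 of 4), with medians of -0.04, -0.85 and -1.71 afterwards. Above sham on those later days were 2, 1 and 0 of 4, and on day 7 the range was from -1.67 (S100a8) to 1.34 (Itgam). On day 3 median centring put S100a8, S100a9, Itgam and Cebpe at 0.72, 0.51, 2.84 and 0.72. Against the mean of the shams only S100a8 was below 0 on that day (-0.05). The monocyte and macrophage list had medians of 0.42, -0.07, -0.40 and -0.89, with 3, 2, 2 and 2 of 5 above sham and, on day 7, a range from -1.95 (Cd163) to 3.55 (C1qa). The lymphocyte list had medians of 0.09, 0.27, 1.14 and 0.50, with 3 of 3, 2 of 3, 3 of 4 and 4 of 5 above sham and, on day 7, a range from -1.57 (Cd8a) to 2.89 (Cd3g). Under median centring the macrophage medians of days 3 and 7 were 0.91 and 0.28, and against the mean of the shams the lymphocyte median of day 1 was -0.07. Fewer cells of a type and less RNA per cell cannot be told apart in RNA of whole muscle, and this applies to every ratio below. The part of cell composition in these ratios was not tested.

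Sequences are shown for the 3 neighbouring caspases and for cytochrome c, which the results below turn on. The probes of Casp1, Casp4 and Casp12 lie on the same strand of chromosome 8 in the assembly rn4, at chr8:2032917-2032976, chr8:2075044-2075103 and chr8:2109935-2110430, with gaps of 42.1 and 34.8 kb. A probe has 60 bases, and the Casp12 probe is split over 496 bases of genome. The longest run of letters that any pair of these 3 probes shares is 8 bases. A cytochrome c probe lies on the minus strand at chr4:78826721-78826780; it is not the brightest one, whose values represent the gene. No annotation of rn4 was used here, so exons and untranslated regions are not assigned. The probe letters follow, 5′ to 3′.
Casp1: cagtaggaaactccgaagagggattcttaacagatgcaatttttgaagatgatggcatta
Casp4: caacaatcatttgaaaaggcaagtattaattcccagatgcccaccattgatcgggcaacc
Casp12: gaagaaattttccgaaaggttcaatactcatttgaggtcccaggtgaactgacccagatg
Cycs: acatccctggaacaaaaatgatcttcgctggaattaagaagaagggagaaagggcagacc

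The day-by-day counts of members past 2-fold were small. This is a rule of size, since 1 array per day gives no test. On day 1, 0 of 36 members were at least 2-fold higher (1.24% of all genes) and 2 were at least 2-fold lower (4.91%). On day 3, 1 was higher (2.47%) and 3 were lower (3.95%). On day 7, 2 of 35 were higher (3.13%) and 0 lower (1.23%), and on day 14, 1 of 34 was higher (3.14%) and 1 lower (1.57%). In either direction 6.15%, 6.42%, 4.35% and 4.71% of all genes passed 2-fold on the 4 days. At a 1.5-fold limit 6 were higher and 3 lower on day 1 (5.14% and 9.38% of all genes), 4 and 5 on day 3 (7.73% and 7.97%), 3 and 2 on day 7 (7.47% and 4.7%), and 5 and 3 on day 14 (8.16% and 5.77%). The balance depended on scaling: median centring gave 18 higher and 0 lower on day 1, 10 and 0 on day 3, 5 and 0 on day 7, and 5 and 0 on day 14, and the deposited ratios gave 6 and 3, 5 and 4, 6 and 3, and 4 and 2. Shares of all genes past 2-fold under these other scalings are not given here, so these counts have no background beside them. Under median centring the medians of all genes were 0.27 to 0.37.

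Over the 4 days, 6 members passed 2-fold at least once: Cycs, Bcl2l2, Mcl1, Bik, Casp4 and Casp12. That is 16.7% of the members measured on any day, beside 11.5% of all such genes. The members nearest the limit were Mcl1 at -1.0 on day 14 and -1.01 on day 3, just past it, and Bid at -0.91 and Bbc3 at 0.90 on day 14, just short of it. The other 30 measured members stayed within 2-fold on every measured day, between -0.91 and 0.90, and Casp14 was measured on none. Measured against the sham channels, 21, 15, 13 and 9 members had an injured level above all 4 of them on days 1, 3, 7 and 14 (33.6%, 34.5%, 40.0% and 31.7% of all genes). Below all 4 were 6, 10, 7 and 12 members (27.8%, 25.0%, 23.4% and 27.5%).

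**Figure D1:**
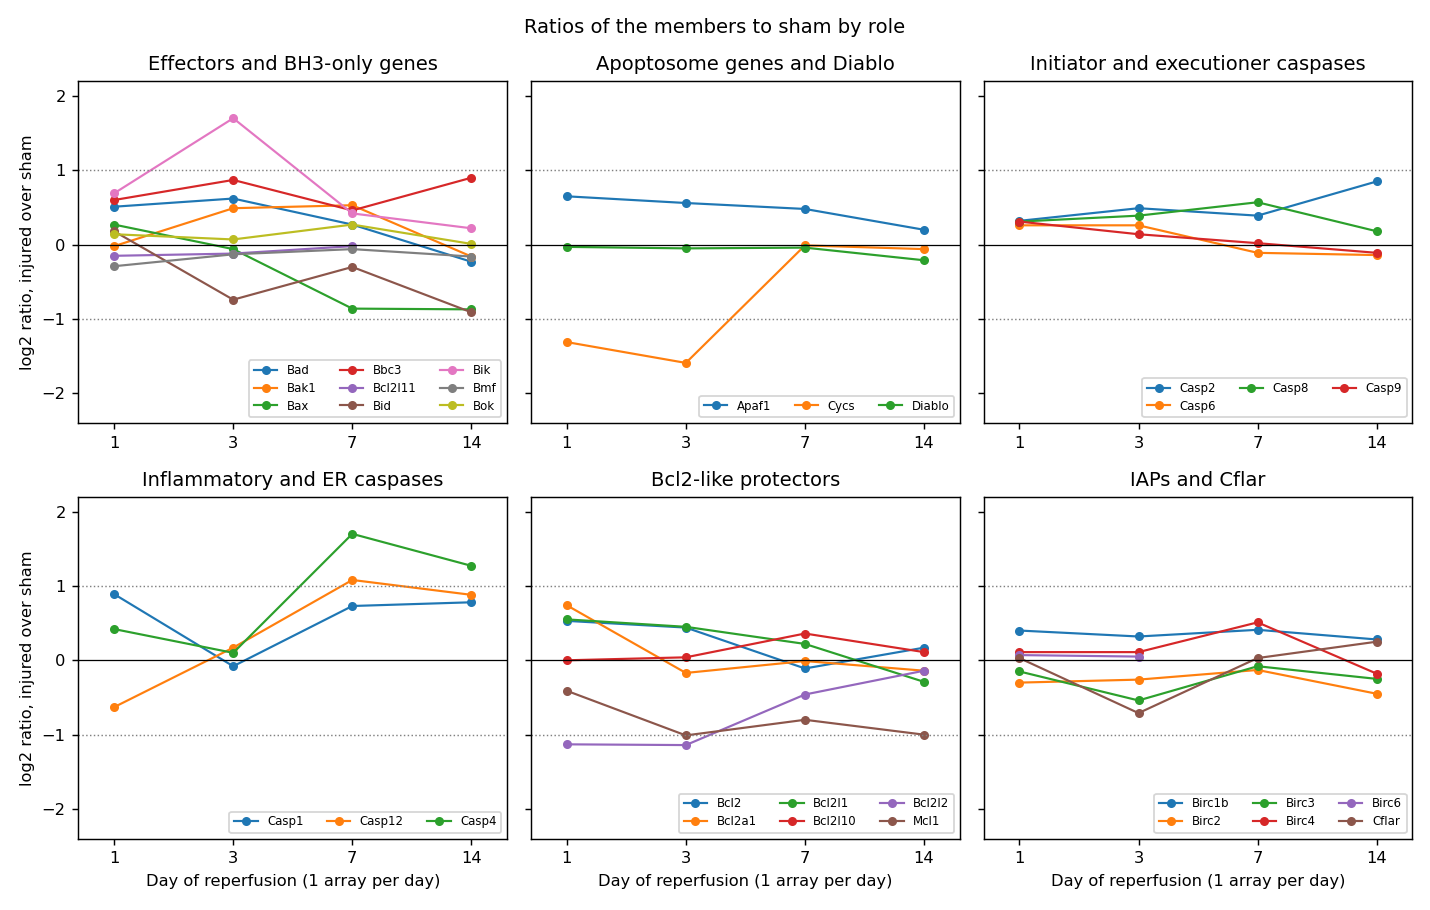
Log2 ratio of injured to sham muscle (vertical axis) on days 1, 3, 7 and 14 of reperfusion, 1 array per day, for death promoting, protective and inflammatory members, by role, and dotted lines mark 2-fold. Most lines stay between the dotted lines, and Bik on day 3, Casp4 on days 7 and 14, and Cycs on days 1 and 3 lie farthest outside them, the last at 0.14 on day 1 under median centring.

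Among the effectors, which form the pore of the outer mitochondrial membrane, Bax and Bak1 took different courses. Bax had injured levels of 12.0, 11.14, 10.59 and 10.67 (log2 of the normalized channel) on days 1, 3, 7 and 14, and sham levels of 11.73, 11.19, 11.45 and 11.55. The injured muscle was thus above all 4 shams on day 1 and below all 4 on the other days, least so on day 3. The ratios were 0.27, -0.06, -0.86 and -0.87, or 1.82-fold and 1.83-fold lower on days 7 and 14. The other Bax probe gave 0.43, -0.21, -0.71 and -0.73. Bax stayed below sham on days 7 and 14 under every scaling, but median centring left only -0.09 and -0.13 there and put days 1 and 3 at 1.61 and 0.94. Bak1 was at -0.02, 0.49, 0.53 and -0.16, with the first value at 1.13 and the last at 0.52 under median centring.

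BH3-only genes encode the sensors that set the effectors free. Bik, which sits mainly at the endoplasmic reticulum, had injured levels of 7.67, 8.78, 7.40 and 6.98 beside sham levels of 6.98, 7.08, 6.98 and 6.77. The day 3 muscle stood above every other channel, and only the day 14 muscle fell inside the sham range. The ratios were 0.69, 1.70, 0.42 and 0.22. Day 3 was thus 3.24-fold higher than sham, and 1.83 to 2.73 on the log2 scale under the other scalings. The day 7 sham channel was not well above background, so that day stands as at least 1.34-fold. On day 3 the dividing cell markers had a median of 1.25, with 3 of 3 above sham.

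Bbc3, the p53 target PUMA, was at 0.60, 0.87, 0.46 and 0.90, above sham on every day. Its sham channel varied widely (8.85, 7.91, 6.90 and 8.79, SD 0.92, n = 4), and only the injured levels of days 1 and 14 lay above all 4 shams. Against the mean of the shams day 7 was at -0.75, and it was at -0.26 in the deposited ratios. Bad, which binds and disables Bcl2 and Bcl2l1, was at 0.51, 0.62, 0.27 and -0.23, the last at 0.43 under median centring. The other Bad probe gave 0.34, -0.04, -0.27 and -0.40. Bid, the link from caspase 8 to the mitochondrion, was at 0.18, -0.74, -0.30 and -0.91, with a sham channel that spanned 6.68 to 8.0 and was not well above background on day 7. The values of Bid on days 3, 7 and 14 were below 0 under every scaling. Bcl2l11, known as Bim, was close to background throughout, at -0.15, -0.12 and -0.02 on days 1, 3 and 7, with a sham channel not well above background, and was not measured on day 14.

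Cytochrome c, Cycs, which carries electrons in respiration and triggers the apoptosome once released, had the lowest loess ratio of any member, although in the deposited ratios Bid was lower on day 7 (-2.52). Its injured levels were 12.39, 12.15, 13.36 and 13.16 on days 1, 3, 7 and 14, and its sham levels 13.70, 13.74, 13.37 and 13.23. The muscles of days 1 and 3 lay well below the lowest sham channel, while those of days 7 and 14 were close to their own sham. The ratios were -1.31, -1.59, -0.01 and -0.06, which is 2.47-fold lower on day 1 and 3.01-fold lower on day 3. The probe printed above gave -1.06, -1.18, -0.20 and -0.10, and the remaining probe -1.48, -1.98, -0.03 and 0.00. Under median centring day 1 was at 0.14 and day 3 at -0.48, still less than the medians of all genes (0.37 and 0.29), and days 7 and 14 were at 0.89 and 0.77. The fibre markers, at medians of -3.19 and -4.00, were low on the same days. Rat cytochrome c has near-identical copies in the genome, so a share of this signal from copies cannot be told apart.

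Apaf1, the scaffold of the apoptosome, did not follow Cycs. Its injured levels were 8.06, 7.97, 7.87 and 7.41 beside sham levels of 7.40, 7.41, 7.39 and 7.21, above all 4 shams on days 1, 3 and 7. The ratios were 0.65, 0.56, 0.48 and 0.20 and kept their sign under every scaling, but day 14 was only 0.05 against the mean of the shams. Diablo, which leaves the mitochondrion with cytochrome c and binds IAPs, was at -0.03, -0.05, -0.04 and -0.21. Its values were above 0 under median centring, at 1.28, 0.97, 0.77 and 0.54.

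**Figure D2:**
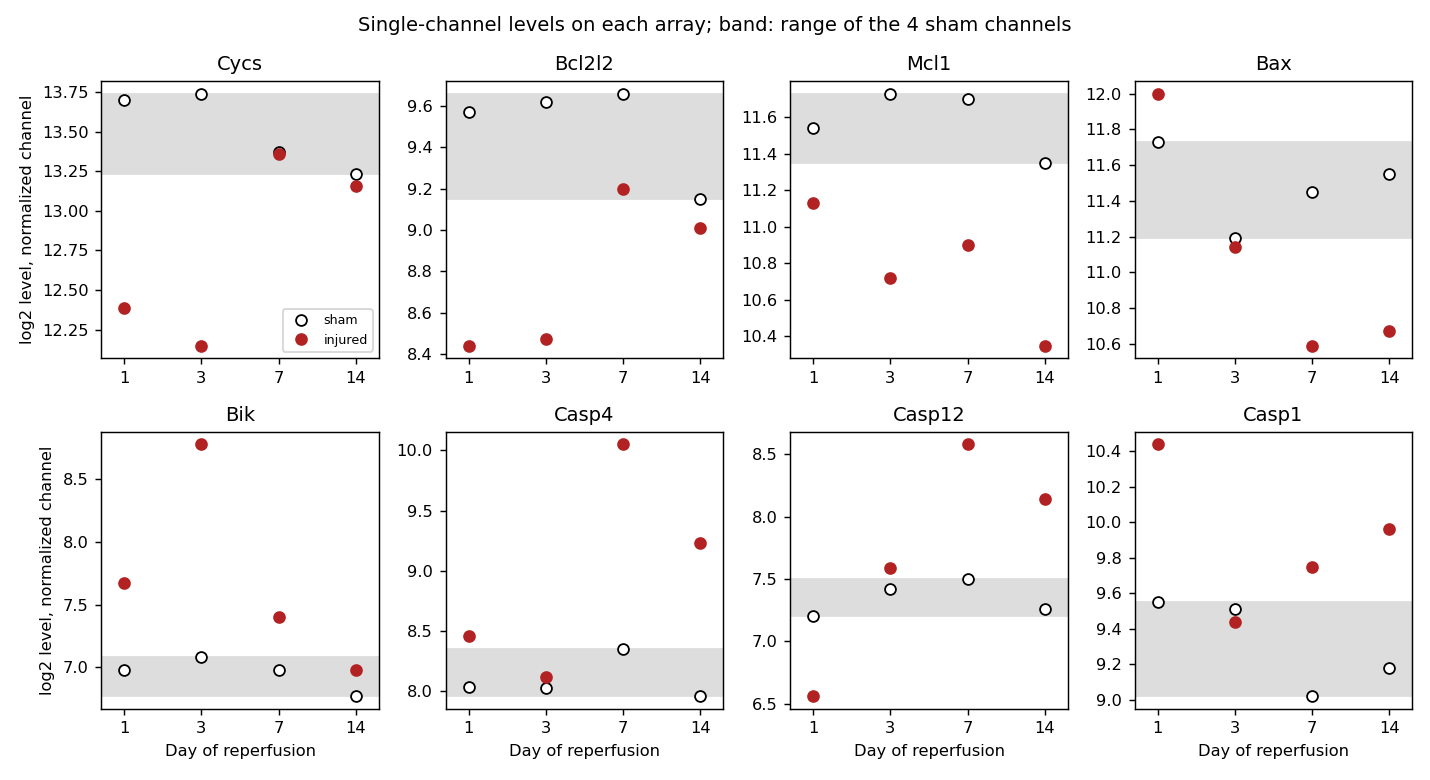
Log2 level of the normalized single channels (vertical axes, each with its own range) by day of reperfusion for 8 members, with open circles for the sham channel, filled circles for the injured channel and a band for the range of the 4 sham channels. Injured Cycs and Bcl2l2 lie below the band on days 1 and 3 and slightly below it on day 14. Bax lies below it on days 3, 7 and 14, and Mcl1 on every day. Casp4 and Casp1 lie above it on days 1, 7 and 14, and Casp12 on days 3, 7 and 14. Under median centring the ratios of Cycs on day 1 and of Mcl1 on day 1 were above 0.

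The initiator caspases, which start the cascade, showed no value past 2-fold after loess. Casp8, the initiator of the death receptor route, was at 0.31, 0.39, 0.57 and 0.18. Its sham channel was not well above background on any array, so the folds are at least 1.24, 1.31, 1.32 and 1.14. The deposited ratios, which are not shrunk by the offset used here, put Casp8 at 1.45, 2.37, 2.34 and 1.1. Casp9, the apoptosome caspase, was at 0.31, 0.14, 0.02 and -0.11, with a dim sham channel on days 3, 7 and 14. All 3 initiators (the remaining one is Casp2) lay above all 4 sham channels on days 1 and 3, and under every scaling their ratios on those days were above 0.

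The executioner caspases dismantle the cell. Among them, Casp6 was at 0.26, 0.26, -0.11 and -0.14, the late values at 0.24 and 0.26 under median centring.

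Casp1, Casp4 and Casp12 were all above sham in the late muscle. Casp1 cleaves the precursors of interleukin 1 beta and interleukin 18, Casp4 senses bacterial lipopolysaccharide in the cytosol and opens the membrane through gasdermin D, and Casp12 resides at the endoplasmic reticulum. Casp4 had injured levels of 8.46, 8.12, 10.05 and 9.23 on days 1, 3, 7 and 14, and sham levels of 8.04, 8.03, 8.35 and 7.96. The late muscles lay well clear of the sham range, whose SD was 0.17 (n = 4), and the day 3 muscle lay inside it. The ratios were 0.42, 0.10, 1.70 and 1.27, or 3.25-fold higher on day 7 and 2.41-fold higher on day 14. Under the other scalings day 7 was at 1.96 to 2.36 and day 14 at 1.14 to 1.88.

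Casp12 had injured levels of 6.56, 7.59, 8.58 and 8.14, and sham levels of 7.20, 7.42, 7.50 and 7.26. The day 1 muscle was below all 4 shams and the other muscles above them, in the order day 3, day 14, day 7. The ratios were -0.63, 0.17, 1.08 and 0.88, so that day 7 was 2.11-fold higher. Casp1 had injured levels of 10.44, 9.44, 9.75 and 9.96, and sham levels of 9.55, 9.51, 9.02 and 9.18. It was above all 4 shams on days 1, 7 and 14 and inside their range on day 3, with ratios of 0.89, -0.08, 0.73 and 0.78 (day 3 at 0.80 under median centring). Thus the 3 neighbours were all above sham on days 7 and 14 under every scaling, while on day 1 Casp1 was above and Casp12 below sham. Their medians were 0.42, 0.10, 1.08 and 0.88, beside 0.02 to 0.05 for all genes. On days 7 and 14 the monocyte and macrophage list had medians of -0.40 and -0.89 (2 of 5 above sham, but 0.28 and 4 of 5 on day 7 under median centring) and the lymphocyte list 1.14 and 0.50 (3 of 4 and 4 of 5), and on day 1 the neutrophil list had a median of 2.56.

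RefSeq promoter windows of 250 bases before the gene start (assembly GRCr8) were searched for 25 members, among them Casp1 and Casp12 but not Casp4, Bik or Bax. The search covered both strands and 10 motifs chosen with the expression values known: the core of the interferon-stimulated response element, TTCNNNGAA (STAT), the NRF-1 site, TGACGTCA and the TGACGT within it (cAMP response element), CACGTG (E-box), GGAANNCCC (NF-kB, loose), the strict NF-kB site, CCAAT and TATAAA. The interferon element core occurred in 2 of the 25 members, Casp1 and Casp12, and in 3.41% of all 33469 windows. The match lies on the minus strand in either gene and begins 28 bases before the start of Casp1 and 38 bases before that of Casp12. TTCNNNGAA occurred in Bad, Bcl2l1 and Casp12 (7.67% of windows) and TGACGT in Cycs (6.95%). CCAAT occurred in 7 members (34.0%) and TATAAA in 3 (12.9%). The remaining motifs occurred in 0 members (0.762% of windows for NRF-1, 1.59% for TGACGTCA, 5.59% for CACGTG, 5.09% for GGAANNCCC and 0.0956% for the strict NF-kB site). A match describes letters, and binding was not measured. The windows of Casp1 (chr8:10872580-10872829, plus strand) and Casp12 (chr8:10926938-10927187, plus strand) are printed to show the shared match, in capitals.
Casp1: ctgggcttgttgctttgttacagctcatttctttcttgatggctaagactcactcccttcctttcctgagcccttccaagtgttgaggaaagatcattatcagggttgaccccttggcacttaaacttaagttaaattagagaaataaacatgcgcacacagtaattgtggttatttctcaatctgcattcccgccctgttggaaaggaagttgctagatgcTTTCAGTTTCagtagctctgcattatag
Casp12: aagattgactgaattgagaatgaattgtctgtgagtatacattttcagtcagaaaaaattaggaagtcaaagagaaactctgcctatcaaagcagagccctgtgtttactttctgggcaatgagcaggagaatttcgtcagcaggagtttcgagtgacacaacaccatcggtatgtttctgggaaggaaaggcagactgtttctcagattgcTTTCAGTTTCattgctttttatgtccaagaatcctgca

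The Bcl2-like protectors bind BH3-only proteins and effectors. Mcl1, a protector with a short-lived protein, had injured levels of 11.13, 10.72, 10.90 and 10.35 beside sham levels of 11.54, 11.73, 11.70 and 11.35. The injured muscle was below all 4 shams on every day. The ratios were -0.41, -1.01, -0.80 and -1.0, or 2.01-fold lower on day 3 and 2.0-fold lower on day 14. The other Mcl1 probe gave 0.02, -0.73, -0.47 and -0.59. Median centring put day 1 at 0.87 and left -0.01, -0.02 and -0.27 on the later days, below the medians of all genes there.

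Bcl2l2, known as Bcl-w, had injured levels of 8.44, 8.47, 9.20 and 9.01, and sham levels of 9.57, 9.62, 9.66 and 9.15. The early muscles lay clearly below all 4 shams, the day 7 muscle lay inside their range, and the day 14 muscle lay slightly below them. The ratios were -1.13, -1.14, -0.46 and -0.14, that is, 2.19-fold lower on day 1 and 2.21-fold lower on day 3. Median centring gave -0.11 and -0.30 on the early days and 0.22 and 0.51 on the late ones. The other Bcl2l2 probe went the other way at 0.20, 0.08, 0.19 and 0.24, with a sham channel not well above background, so the early direction is that of 1 probe only.

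Bcl2, the founding member, was at 0.53, 0.44, -0.11 and 0.17, with day 7 at 0.20 under median centring and day 14 at -0.07 against the mean of the shams. Bcl2l1, known as Bcl-x, was at 0.55, 0.45, 0.22 and -0.29. Its injured level was above all 4 shams on days 1 and 3 and below them on day 14, the last value being 0.33 under median centring. Of its 4 probes 3 were measured, and they spread from -0.23 to 0.45 on day 3. Bcl2a1, a protector of blood cells, was at 0.74, -0.17, -0.01 and -0.14, the last 3 above 0 under median centring (0.64, 0.55 and 0.47).

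Set against its protectors within the same array, the log2 ratio of Bax minus that of Bcl2 was -0.26, -0.50, -0.75 and -1.04 on days 1, 3, 7 and 14, but under median centring 0.60 on day 1 and 0.02 on day 3, and 0.06 on day 1 against the mean of the shams. On days 7 and 14 it was below 0 under every scaling. Against Mcl1 the difference was 0.68, 0.95, -0.06 and 0.13, with day 7 at 0.57 in the deposited ratios. These are differences of ratios to sham, not of levels, and they have no replicate.

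The IAPs bind caspases or mark them for degradation, and Cflar is a caspase 8 look-alike that blocks it. Birc2 was at -0.30, -0.26, -0.13 and -0.45 and its neighbour on chromosome 8, Birc3, at -0.15, -0.54, -0.08 and -0.25. All of these but the day 14 value of Birc2 were above 0 under median centring. Birc4, which blocks the executioners directly, was at 0.11, 0.11, 0.51 and -0.18, with day 7 as at least 1.43-fold because its sham channel was dim. Cflar was at 0.03, -0.71, 0.03 and 0.25. Its day 3 muscle, at 7.56, was below all 4 shams (8.0 to 8.50), although under median centring the ratio was only -0.04.

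The remaining 10 members are given by range. Casp14, the caspase of the skin, was not well above background in either channel on any array. The other 9 lay between -0.29 and 0.85 on the days they were measured. The highest value belonged to Casp2, on day 14, named here after its values were seen, with 0.32, 0.49, 0.39 and 0.85 over the 4 days. Median centring put Casp2 at 1.48, 1.39, 1.08 and 1.55, past 2-fold on every day.

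Death promoting members as a group lay slightly above protective members on every day. Their median was 0.29, 0.20, 0.24 and -0.06 on days 1, 3, 7 and 14, beside 0.05, -0.07, -0.01 and -0.14 for protective members. Above sham were 13 of 18, 11 of 18, 11 of 18 and 8 of 17 death promoting members, and 7 of 12, 6 of 12, 5 of 11 and 4 of 11 protective members. Of all genes, 12330 of 22947, 13474 of 24466, 13087 of 23492 and 13546 of 23747 were above sham, with medians of 0.02 to 0.05. The medians of the death promoting and protective groups differed by 0.24, 0.27, 0.24 and 0.08. In the 4 sham channels the same difference of medians, taken on levels, had an SD of 0.32 (n = 4), more than any of these values. Median centring put all 8 medians above 0, and the difference of day 3 at 0.70. The order of the groups hides members on either side, since Cycs and Bax are death promoting and Bcl2 and Bcl2l1 protective.

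**Figure D3:**
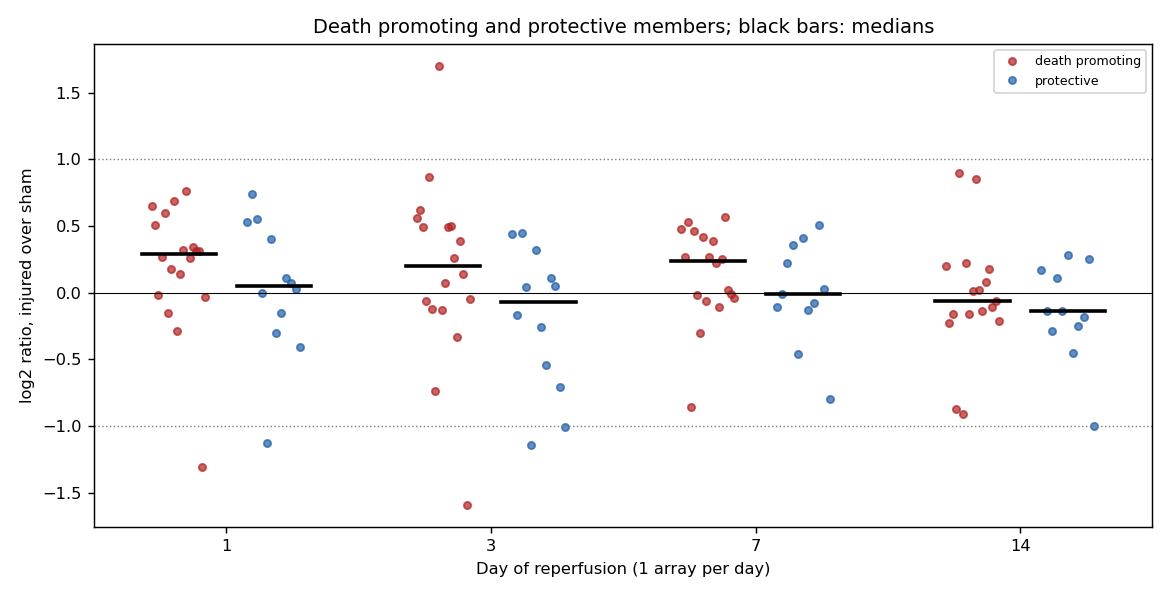
Log2 ratio of injured to sham (vertical axis) by day of reperfusion, 1 array per day, with each point a death promoting or a protective member, black bars for the group medians and dotted lines for 2-fold. The medians of death promoting members (0.29, 0.20, 0.24 and -0.06) lie above those of protective members (0.05, -0.07, -0.01 and -0.14), and the points overlap on every day; under median centring all these medians were above 0.

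Partner genes of the pathway outside the family were counted in the same way, on the loess ratios. Of 24, 26, 25 and 26 such genes measured on days 1, 3, 7 and 14, 2 were at least 2-fold higher and 2 lower on day 1 (8.33% each, beside 1.24% and 4.91% of all genes), and 0 in either direction on the other days. Il1b and Il18, whose products Casp1 activates, were at 1.54 and 1.21 on day 1, at -0.88 and -0.24 on day 3, at 0.11 and 0.66 on day 7 and at -0.07 and 0.23 on day 14. Their day 3 values were above 0 under median centring, at 0.03 and 0.65. The pyroptosis and necroptosis list as a whole had medians of 0.85, -0.01, 0.26 and 0.08, with 6 of 6 above sham on day 1. The cell cycle inhibitor Cdkn1a, a p53 target, was at -1.40, -0.92, 0.94 and 0.53, and Vdac1, the channel of the outer mitochondrial membrane, at -1.25, -0.44, 0.95 and -0.48. Under median centring the day 1 values of Cdkn1a and Vdac1 were -0.09 and -0.15, and Cdkn1a on day 3 and Vdac1 on days 3 and 14 were above 0. Death receptors and their adaptors had medians of 0.36, 0.25, 0.10 and -0.20, with 0 members past 2-fold after loess. In the deposited ratios Faslg was at 3.06 on day 7 and 2.19 on day 14, and Fadd at -1.26 on day 14. Median centring put Fas, Tnfrsf1a, Fadd and Tradd at 1.56, 1.49, 1.29 and 1.71 on day 1, with Tnfrsf21 and Ripk1 at 0.53 and 0.59.

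Whether a member kept an offset from sham over time was tested with limma on the 4 arrays together, with Benjamini-Hochberg adjustment over 20530 genes. Of 34 members 0 passed an adjusted p of 0.05, beside 0.0244% of all genes higher and 0.156% lower. At an unadjusted p under 0.05 there were 9 higher and 3 lower members (11.7% and 10% of all genes). The smallest adjusted p was that of Bbc3, with a mean of 0.71 (SE 0.10, limma adjusted p = 0.097), higher on 4 of 4 arrays. Mcl1 had a mean of -0.81 (SE 0.13, limma adjusted p = 0.10) and was lower on 4 of 4 arrays. Apaf1 had a mean of 0.47 (SE 0.10, limma adjusted p = 0.12), and was higher on 4 of 4. Of the 34 members measured on every array, 11 were above and 7 below sham on all 4 days. The share of all genes with the same sign on all 4 days is not given here. The call depends on scaling, since median centring called 20 members, all higher, and the deposited ratios 2, Casp8 and Birc1b. The shares of all genes called in those fits are not given here. Under median centring the medians of all genes were themselves 0.27 to 0.37.

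Late (days 7 and 14) was then set against early reperfusion (days 1 and 3), taking the days of a phase as repeats. Cycs passed, with a late mean of -0.04, an early mean of -1.45 and a difference of 1.41 (SE 0.16, limma adjusted p = 0.042). It was the only one of 34 members called, beside 1.70% of all genes higher and 0.229% lower. The call was lost in limma fits under median centring (1.01, limma adjusted p = 0.13), in the deposited ratios (1.56, adjusted p = 0.12) and against the mean of the shams (0.99, adjusted p = 0.14). It was also lost without any single array (differences of 1.27 to 1.56) and with the scan session as a term (1.44). The session term gave the same fit as leaving out the day 14 array, so it is no separate check. The direction was the same in all of these. The array of day 14 was scanned in another session than the rest. At an unadjusted p under 0.05, 4 members were higher and 5 lower in the late phase (11.9% and 7.36% of all genes).

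Other members with large late minus early differences did not pass. Casp4 differed by 1.23 (SE 0.22, limma adjusted p = 0.090) and Casp12 by 1.21 (SE 0.31, adjusted p = 0.15). Casp1, already high on day 1, differed by 0.35 (SE 0.35, limma adjusted p = 0.67). Bax differed by -0.97 (SE 0.17, limma adjusted p = 0.084), Bcl2l2 by 0.84 (SE 0.16, adjusted p = 0.10) and Bik by -0.88 (SE 0.37, adjusted p = 0.31). With 2 arrays a phase, and with each phase joining unlike days, these estimates are wide.

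**Figure D4:**
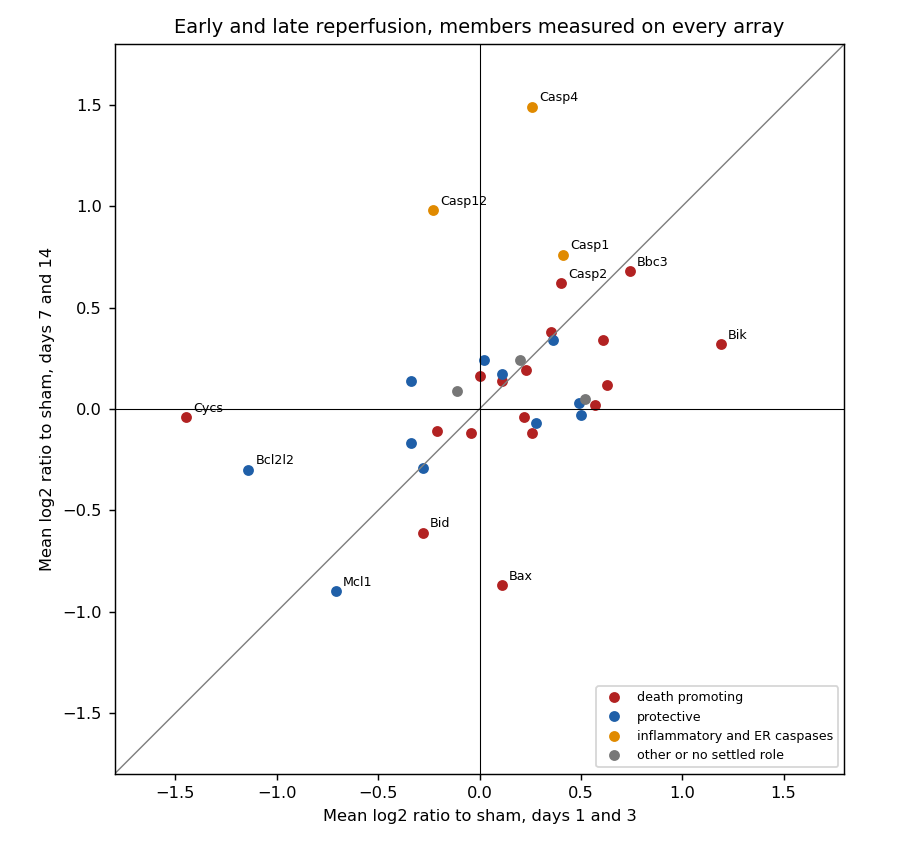
Mean log2 ratio to sham on days 1 and 3 (horizontal axis) and on days 7 and 14 (vertical axis) for the 34 members measured on every array, coloured by role, with the diagonal marking equal values. Casp4 and Casp12 lie far above the diagonal, as does Cycs (early mean -1.45, late mean -0.04), and Bax and Bik lie below it; these differences kept their sign under median centring, where the call of Cycs was lost.

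Of the 37 members 11 had more than 1 probe. The probes of Bax ran together, within 0.16 of each other on every day. Those of Cycs were all below sham on days 1 and 3 but up to 0.80 apart, between -1.98 and -1.18 on day 3. The probes of Bcl2l2 were up to 1.33 apart, and the other probe was the dimmer one.

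**Figure D5:**
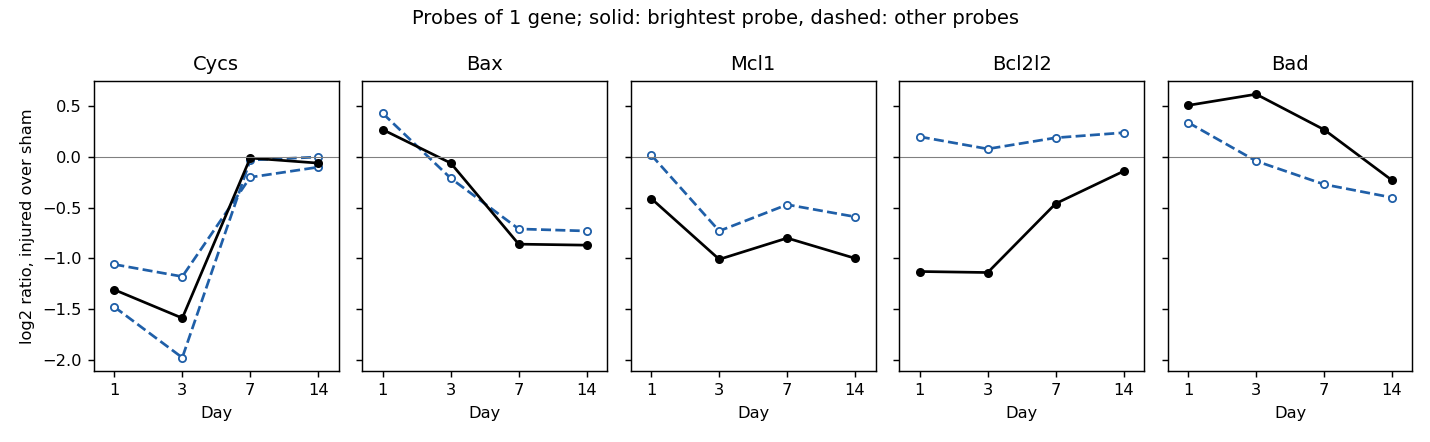
Log2 ratio of injured to sham (vertical axis) by day for each probe of 5 members, with a solid line for the brightest probe and dashed lines for the others. The 3 probes of Cycs lie between -1.98 and -1.06 on days 1 and 3 (day 1 of the brightest at 0.14 under median centring), while the probes of Bcl2l2 lie on either side of 0.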

How the data were processed

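The authors deposited the scanner output of each array. Per spot and channel these files hold the deposited intensity, a mean over its pixels, and the median of the background around it. The deposited LogRatio is a log10 ratio of injured (red) over sham (green) after background subtraction and dye normalization, per the file headers, which name Feature Extraction 10.5.1.1 (9.5.3 in the submitters' processing notes). The deposited value table holds log2 ratios and matched LogRatio on every array, so its scale, centring and direction were settled. Here R 4.3.3 and limma 3.58.1 were used: normexp (offset 50, which shrinks the ratios of dim probes), loess within arrays without control and outlier spots, spots of a probe averaged, and single-channel levels by Aquantile. Means of the 4 arrays, and late against early arrays, were tested with lmFit and eBayes, two-sided, with Benjamini-Hochberg adjustment at 0.05. With 1 array per day no single day can be tested, and the number of arrays limits the precision. Samples of one group are not repeated, and p-values take different days as repeats. The steps were tested on simulated data.

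The members and lists were chosen with earlier results of these data known. Values on all 4 days are given for each member past 2-fold on any day and for a fixed set of main members (Bcl2, Bcl2l1, Mcl1, Bcl2a1, Bax, Bak1, Bad, Bid, Bcl2l11, Bbc3, the main caspases, Apaf1, Cycs, Diablo, Birc4, Birc2, Birc3, Cflar), of which 2 are not reported here by name although they are counted. Other members are given by range, and partner genes by count and name where past 2-fold. RefSeq symbols of GRCr8 were matched by accession for 29 members, by symbol for 7 and by synonym for 1. Of the marker and partner lists, Mki67 and Mlkl were not matched by name. Alternatives were the normalization, background correction, sham reference, filter on dim spots, choice of probe, fold limit, leaving out an array and the scan session.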

Additional observations from a re-analysis of the deposited data

Results flagged for a closer look

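In 2 of 27 members examined the sham channel of 1 array stood apart from the other 3 by Dixon's criterion, which chance meets for about 1 group in 20. The sham level of Apaf1 on the day 14 array was 7.21, beside 7.40, 7.41 and 7.39 on the others. The sham level of Bcl2l2 on that array was 9.15, beside 9.57, 9.62 and 9.66, so the day 14 ratio of Bcl2l2 is -0.14 against its own sham and -0.49 against the mean of the 4.

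The effect in late and early muscle differed for Cycs, by 1.41 on the log2 scale (SE 0.16, limma adjusted p = 0.042), with the values given above. That call was lost under median centring, in the deposited ratios and against the mean of the shams.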

How the results depend on the processing

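The counts of members past 2-fold (2, 4, 2 and 2 on days 1, 3, 7 and 14) became 18, 10, 5 and 5 under median centring, 9, 9, 9 and 6 in the deposited ratios, and 9, 9, 5 and 8 at 1.5-fold. Apart from the 1.5-fold shares given above, shares of all genes are not given beside these alternative counts or those that follow. With the mean of the shams as the reference day 1 had 5. With the mean of a gene's probes, and likewise with the probe nearest sham, days 1, 3 and 14 had 1, 2 and 1. The differences between death promoting and protective medians (0.24, 0.27, 0.24 and 0.08) were above 0 in every alternative run. Those that moved by over 1.5 times were 0.55 (day 1) and 0.70 (day 3) under median centring, 0.47 (day 3), 0.14 (day 7) and 0.17 (day 14) in the deposited ratios, 0.38 (day 1) against the mean of the shams, 0.48 (day 3) with both channels well above background, and 0.02 (day 7) and 0.04 (day 14) with the mean of a gene's probes; day 14 without a filter on dim spots was 0.05. Members with a mean that differs from 0 numbered 20 under median centring and 2 in the deposited ratios, with no share of all genes beside them. Members that differ between late and early numbered 0 under median centring, in the deposited ratios, against the mean of the shams, with the scan session as a term, and without any single array (0 to 0), where a phase left with 1 array is assumed to vary like the other. The fit with the session term is the same as that without the day 14 array. By the probe nearest sham Bcl2l2 reversed to 0.20 on day 1 and 0.08 on day 3, and under median centring Cycs reversed to 0.14 on day 1. The background correction, the filters on dim spots and the bound for dim channels moved none of these counts by over 1.5 times. No paired analysis was possible because each group has 1 sample. Brightness limits the members with a dim sham channel.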
